A study of Arabidopsis thaliana with 6 samples.

Results

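The genes described here are encoded in the chloroplast genome of Arabidopsis thaliana and were followed in rosette leaves 10 min after mechanical wounding. They were taken by their lower-case plastid symbols: those starting with psa, psb, pet, ndh, rpo or ycf, and rbcL, accD, matK, cemA, ccsA, atpA, atpB, atpE, atpF, atpH and atpI. On the expression array, 53 of 22746 probe sets listed exactly 1 such gene, and these 53 probe sets stood for 53 different genes. All 53 were matched to the plastid genome in the gene table of the TAIR10.1 assembly. A further 3 probe sets with such a symbol listed several gene records and were left out by the rule.

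Local leaves were wounded leaves harvested 10 min after 3 rosette leaves per plant had been clamped across the midvein with tweezers. Systemic leaves were unwounded leaves of wounded plants, taken at the same time, and control leaves came from plants that were not wounded. All plants were of the ecotype labelled Colombia, were 5 weeks old and had grown in soil at 21 °C with 10 h of light and 14 h of darkness. Each group had 2 arrays labelled as biological replicates, each made from a pool of leaves of 3 plants, so 6 arrays were compared and their small number limits the precision of every value.

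The chloroplast genome is a remnant of a cyanobacterial genome. It encodes core subunits of the photosystems, of the cytochrome b6f complex that links them, of the ATP synthase and of the NDH complex, which returns electrons from the stroma to the plastoquinone pool. Nuclear genes supply the remaining subunits. Plastid genes are read by a bacterial-type RNA polymerase whose core subunits are the rpo genes, and by phage-type polymerases that the nucleus encodes. In chloroplasts, poly(A) tails mark RNA for decay, in contrast to the cytosol, whereas the RNA here was labelled with a kit for 3' amplification. How the kit captured plastid transcripts was not tested. In such bulk samples, fewer chloroplasts or cells and less RNA per chloroplast or cell cannot be told apart.

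Plastid transcripts gave strong signals. Values are log2 RMA values (Robust Multi-array Average, a log scale on which a difference of 1 is 2-fold), and the mean over the 6 arrays was above the upper quartile of all probe sets (8.16) for 49 of the 53 members. For 13 members it was at least 13, a mark that 0.580% of all probe sets reached. It was under 8 for rpoB, psbN, petD and ndhF, and below the median of all probe sets (6.26) for ndhF alone. Probes differ in how well they bind, so these signals do not order the transcripts by abundance. Among the 13 members at 13 or more, the widest span across the 6 arrays was 0.41, and the table's highest value was 14.66. No difference between leaf groups exceeded 0.23 in size among these 13, against up to 0.82 among the 40 members under 13. Whether such bright probe sets were near saturation could not be seen from this table.

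Of the mesophyll markers, RCA lay between 14.57 and 14.61 and LHCB4.1 between 14.20 and 14.26 on all arrays, and the root hair gene EXPA7 stayed between 4.70 and 5.16. Only 8 of 55 listed cell type markers could be followed. The phloem gene SWEET11, the only 1 of 7 listed phloem markers that could be followed, rose by 0.79 in local leaves. It had 11.40 and 11.50 there, against 10.41 and 10.90 in control leaves. The dividing cell genes AUR1 and AUR2 fell in local and in systemic leaves, with differences between -1.01 and -0.67. The trichome gene TRY and the guard cell gene FMA did not pass. No xylem or epidermis marker was followed. The part of these markers in the results below was not tested. The bacterial hybridization spikes had their lowest mean on control replicate 2 (8.98, against 9.19 to 9.44 on the other arrays), and so did the poly-A spikes (6.74, against 6.95 to 7.56). The probe set for 25S ribosomal RNA was also lowest there (5.66, against 6.10 to 6.29).

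Few plastid transcripts passed the test in any comparison of the leaf groups. Their differences were also less precise, with a median standard error (SE) of 0.14, against 0.11 over all probe sets. In local leaves, 2 of the 53 members, ndhJ and atpI, passed an adjusted p under 0.05 (limma, Benjamini-Hochberg over all probe sets) against control, both higher. That is 3.77% of the members, where 23.6% of all probe sets passed, 9.92% higher and 13.7% lower. This split of all probe sets depended on scaling: 2257 were higher and 3117 lower, but 2806 higher and 2315 lower after cyclic loess. In systemic leaves none of the 53 passed against control, where 8.4% of all probe sets did (4.73% higher and 3.67% lower). Between local and systemic leaves none passed either, where 9.7% did (4.77% higher and 4.93% lower, or 1084 and 1122 probe sets, and 1283 and 836 after cyclic loess). At an unadjusted p under 0.05 the counts of members were 5, 3 and 3 in these comparisons, where 34.5%, 22.2% and 23.3% of all probe sets passed. Both comparisons with control use the same control arrays.

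The fit also gives how large a change could have been missed. In local against control leaves, the 95% interval of the difference stayed within 1 of zero, thus inside a 2-fold change either way, for 52 of the 53 members, as for 90.2% of all probe sets. The exception was petG, with an interval between -1.11 and -0.17. In systemic against control leaves it did so for 49 members, against 94.8% of all probe sets, with psbB, psbC, psbD and ndhF as the exceptions. Between local and systemic leaves it did so for 50, against 94.4%, with psbB, psbC and psbD outside.

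The members' median difference was 0.05 in local against control leaves, 0.07 in systemic against control leaves and -0.01 in local against systemic leaves, and that of all probe sets was -0.04, -0.02 and -0.03. Differences of members lay between -0.64 (petG) and 0.59 (ndhJ) in local leaves, and between -0.40 (ndhF) and 0.82 (psbC) in systemic leaves. In local leaves 35 of the 53 differences were above zero, and in systemic leaves 38, where 42.3% and 46% of all probe sets were. The difference was under 0.25 in size for 42 members in local against control leaves, 41 in systemic against control leaves and 42 in local against systemic leaves, where this held for 63.7%, 75.6% and 74.9% of all probe sets.

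**Figure D1:**
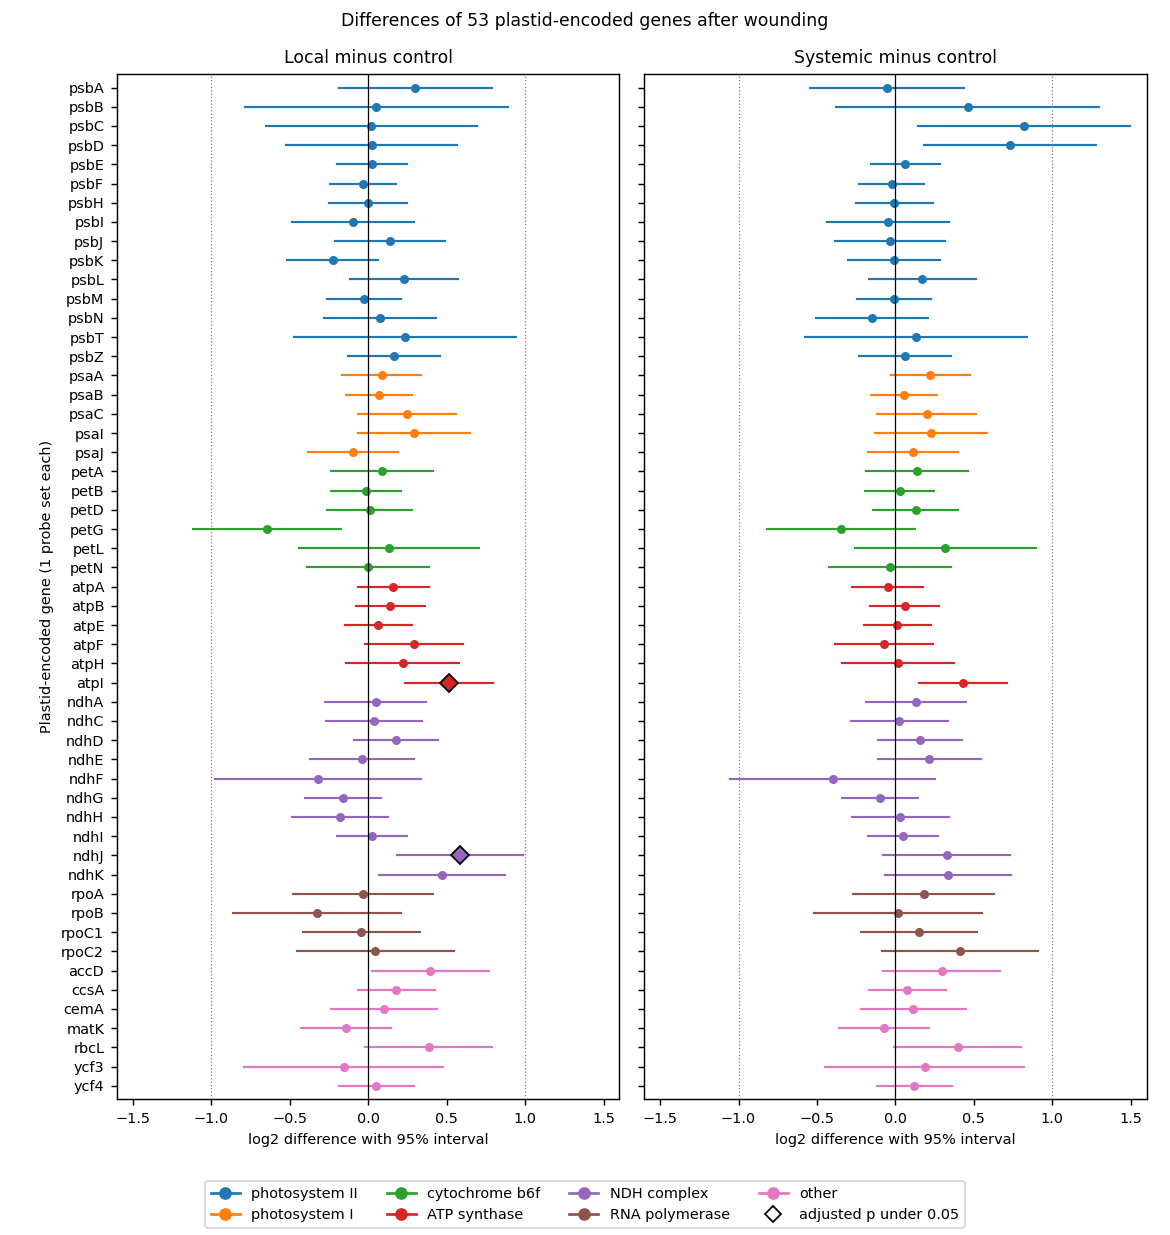
Log2 differences of the 53 plastid-encoded genes, local minus control on the left and systemic minus control on the right, with the 95% interval of the limma fit, coloured by complex. Of the 53 points, 42 in local and 41 in systemic leaves lie within 0.25 of zero, the only called members are atpI and ndhJ in local leaves (diamonds), and the dotted lines mark a 2-fold change.

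Of the 15 photosystem II genes none passed in any comparison, and their median differences were 0.02 in local and -0.01 in systemic leaves against control. The widest movements were those of the reaction centre and core antenna genes. The gene psbD, which encodes the D2 reaction centre protein, had 10.58 and 11.02 in local leaves, 11.50 and 11.51 in systemic leaves, and 11.15 and 10.40 in control leaves. Its neighbour psbC, for the core antenna protein CP43, had 11.32 and 11.78 in local, 12.25 and 12.44 in systemic, and 12.02 and 11.04 in control leaves. Both genes were highest on the 2 systemic arrays, which did not overlap with the local or the control arrays, while local and control arrays overlapped. The 2 control arrays differed by 0.75 for psbD and by 0.98 for psbC.

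The systemic minus control difference was 0.73 ± 0.24 for psbD (SE, adjusted p = 0.111) and 0.82 ± 0.29 for psbC (adjusted p = 0.144). The local minus systemic difference was -0.71 ± 0.24 for psbD (adjusted p = 0.112) and -0.80 ± 0.29 for psbC (adjusted p = 0.143). Neither gene was called, but without control replicate 1 both were higher in systemic leaves, by 1.11 for psbD (adjusted p = 0.0184) and 1.31 for psbC (adjusted p = 0.0138). Without control replicate 2 these differences were 0.36 for psbD and 0.33 for psbC (adjusted p = 0.350 and 0.434). With only the 4 arrays of local and systemic leaves, both were lower in local leaves (adjusted p = 0.0289 for psbD and 0.0257 for psbC). The 2 genes overlap in the annotation, so their probe sets need not be independent.

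The third core gene, psbB, for the antenna protein CP47, had 10.49 and 10.73 in local, 11.12 and 10.92 in systemic, and 11.24 and 9.88 in control leaves. Its control arrays enclosed all the others. The local minus control difference was 0.05 ± 0.36 (adjusted p = 0.948), but it was 0.73 without control replicate 1 (adjusted p = 0.0173) and -0.63 without control replicate 2 (adjusted p = 0.0291), so which way psbB went rested on 1 control array. For psbA, which encodes the D1 protein that is replaced after light damage, the values were 13.32 and 13.08 in local, 13.06 and 12.63 in systemic, and 13.19 and 12.61 in control leaves. The control arrays of psbA overlapped with both other groups, and the local arrays lay narrowly above the systemic ones. Its differences from control were 0.30 ± 0.21 in local and -0.05 ± 0.21 in systemic leaves.

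The remaining photosystem II genes encode cytochrome b559 (psbE and psbF) and small membrane proteins. The cytochrome b559 genes were among the steadiest members. On the arrays, psbF lay between 13.68 and 13.78 and psbE between 12.90 and 13.05. Among the small membrane protein genes psbH, psbI, psbJ, psbK, psbL, psbM, psbN, psbT and psbZ, the local minus control differences lay between -0.23 for psbK and 0.23 for psbT. Local arrays of psbK, at 12.94 and 12.87, did not reach the control arrays at 13.06 and 13.21, a difference of -0.23 ± 0.13 (adjusted p = 0.259). It was the only photosystem II gene whose local and control arrays did not overlap.

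The 5 photosystem I genes showed small differences, none past the threshold. Medians were 0.09 in local and 0.20 in systemic leaves against control. The largest was that of psaI, a small subunit gene, with 12.81 and 12.44 in local, 12.69 and 12.43 in systemic, and 12.45 and 12.22 in control leaves. This gave 0.29 ± 0.15 (adjusted p = 0.236) in local and 0.23 ± 0.15 (adjusted p = 0.466) in systemic leaves. The reaction centre gene psaB lay between 13.84 and 13.97 on the 6 arrays. Its partner psaA had 12.77 and 12.56 in systemic leaves, against 12.46 and 12.43 in control leaves, a difference of 0.22 ± 0.11 (adjusted p = 0.290). The gene psaC, for the iron-sulfur protein that passes electrons to ferredoxin, differed by 0.25 ± 0.14 in local leaves (adjusted p = 0.249). For psaJ, the local arrays (13.07 and 12.78) lay below both systemic arrays (13.14 each), and the control arrays had 12.92 and 13.12, a local minus systemic difference of -0.21 ± 0.12 (adjusted p = 0.375).

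Among the 6 genes of the cytochrome b6f complex, petG had the lowest difference of all members in local leaves. It encodes a small subunit and had 8.41 and 8.29 in local, 8.97 and 8.31 in systemic, and 8.85 and 9.14 in control leaves. Both local arrays lay below both control arrays, whereas the systemic arrays spread over the range of both groups. The local minus control difference was -0.64 ± 0.20 and missed the threshold (adjusted p = 0.0556). It passed with trended moderation (adjusted p = 0.0404), with dim probe sets below the median left out (adjusted p = 0.0447), and with only the 4 local and control arrays (adjusted p = 0.0121). The other members of the complex did not follow petG. Cytochrome b6 (petB) lay between 13.96 and 14.12 on all arrays. Subunit IV (petD), one of the dimmest members, had 6.64 and 6.49 in local, 6.76 and 6.60 in systemic, and 6.66 and 6.45 in control leaves, and its groups overlapped. Cytochrome f (petA) and the small subunits petL and petN differed from control by 0.09, 0.13 and -0.00 in local leaves, and by 0.14, 0.32 and -0.04 in systemic leaves. The petL arrays of 1 group lay up to 0.70 apart.

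All 6 ATP synthase genes were higher in local than in control leaves by their means, where 42.3% of all probe sets were. Of the 6, 1 passed (16.7%), where 23.6% of all probe sets did, 9.92% higher and 13.7% lower. The called gene was atpI, for subunit a of the membrane part, with 8.93 and 8.70 in local, 8.81 and 8.66 in systemic, and 8.39 and 8.21 in control leaves. All 4 arrays of wounded plants lay above both control arrays. The gene rose by 0.51 ± 0.12 in local leaves (SE, adjusted p = 0.0177), a 1.43-fold difference, to a mean of 8.82 ± 0.17, against 8.30 ± 0.13 in control leaves (SD, n = 2 each, limma). In systemic leaves the difference was 0.43 ± 0.12 and was not past the threshold (adjusted p = 0.0718). Local and systemic leaves differed by 0.08 ± 0.12. The local call was lost without local replicate 1 (0.40, adjusted p = 0.125) and without control replicate 2 (0.43, adjusted p = 0.0886).

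On one side of atpI on the plastid genome lie atpH, atpF and atpA, which encode subunit c of the membrane ring, subunit b of the stalk and the catalytic part's alpha subunit. These genes are known to be read together as an operon. The atpF gene had 12.51 and 12.34 in local, 12.24 and 11.88 in systemic, and 12.16 and 12.11 in control leaves. Its local arrays lay above all others, with differences of 0.29 ± 0.13 from control (adjusted p = 0.169) and 0.37 ± 0.13 from systemic leaves (adjusted p = 0.146). For atpH and atpA, local arrays also lay above both control arrays, by 0.22 ± 0.15 and 0.16 ± 0.10 on average (adjusted p = 0.383 and 0.303). In systemic leaves atpH, atpF and atpA differed from control by 0.02, -0.07 and -0.05. The beta and epsilon subunit genes atpB and atpE, which overlap in the annotation, had the strongest signals of all members. The first had 14.42 and 14.33 in local, 14.36 and 14.23 in systemic, and 14.25 and 14.22 in control leaves. The second had 14.34 and 14.26 in local, 14.27 and 14.22 in systemic, and 14.28 and 14.19 in control leaves. The largest difference of either was 0.14, that of atpB in local leaves against control.

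Of the 10 NDH genes, 1 (10%) passed, higher in local leaves, where 23.6% of all probe sets passed, 9.92% higher and 13.7% lower. It was ndhJ, for a subunit of the arm that protrudes into the stroma, with 12.18 and 12.00 in local, 12.03 and 11.63 in systemic, and 11.71 and 11.30 in control leaves. Local arrays lay above both control arrays, and systemic arrays overlapped with both groups. The gene rose by 0.59 ± 0.17 in local leaves (SE, adjusted p = 0.0438), a 1.503-fold difference, to a mean of 12.09 ± 0.12, against 11.50 ± 0.29 in control leaves (SD, n = 2 each, limma). In systemic leaves it differed by 0.33 ± 0.17 (adjusted p = 0.334). Leaving out either local array ended the call (adjusted p = 0.216 without replicate 1 and 0.0880 without replicate 2), as did leaving out control replicate 2 (0.38, adjusted p = 0.207).

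Next to ndhJ lies ndhK, which encodes another subunit of the same arm. It had 10.83 and 10.81 in local, 10.86 and 10.52 in systemic, and 10.59 and 10.10 in control leaves. Its local arrays were above both control arrays, but the difference of 0.47 ± 0.17 was not past the threshold (adjusted p = 0.0914). Without control replicate 1 it was 0.72 and passed (adjusted p = 0.0218), and without control replicate 2 it was 0.23 (adjusted p = 0.402). The next gene, ndhC, for a membrane subunit, differed by 0.04 ± 0.13. The other 2 genes of the stromal arm, ndhI and ndhH, differed by 0.03 and -0.18 in local leaves.

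Membrane subunit genes of the NDH complex (ndhA, ndhC, ndhD, ndhE, ndhF and ndhG) had a median difference of -0.00 in local and 0.08 in systemic leaves. The dimmest member, ndhF, had 5.15 and 4.91 in local, 5.08 and 4.82 in systemic, and 4.85 and 5.85 in control leaves. Its second control array stood apart from the other 5. Its differences of -0.32 ± 0.28 and -0.40 ± 0.28 from control were not called, and their sign rested on 1 control array. Without control replicate 1 they were -0.82 (adjusted p = 0.0147) in local and -0.90 (adjusted p = 0.0246) in systemic leaves, and without control replicate 2 they were 0.18 (adjusted p = 0.526) and 0.10 (adjusted p = 0.807). Of the nuclear partners, NdhL and NdhN, subunits of the same complex, differed by 0.26 ± 0.11 and 0.14 ± 0.10 in local leaves and by 0.37 ± 0.11 and 0.18 ± 0.10 in systemic leaves, none past the threshold.

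The 4 RNA polymerase core genes were not called in any comparison. The beta subunit gene rpoB had 6.90 and 6.99 in local, 7.70 and 6.86 in systemic, and 7.32 and 7.22 in control leaves. Local arrays lay below control arrays by 0.33 on average (SE 0.23, adjusted p = 0.384), while the systemic arrays were 0.84 apart. The gene rpoC2, for the beta'' subunit, had 10.32 and 10.10 in local, 10.67 and 10.48 in systemic, and 10.53 and 9.80 in control leaves. Its local arrays lay below its systemic arrays, a difference of -0.36 ± 0.22 (adjusted p = 0.379). It was 0.41 ± 0.22 higher in systemic than in control leaves without passing (adjusted p = 0.325), 0.77 higher without control replicate 1 (adjusted p = 0.0289) and 0.05 higher without control replicate 2 (adjusted p = 0.913). The rpoC1 and rpoA genes, for the beta' and alpha subunits, differed from control by between -0.04 and 0.18. All 4 local minus systemic differences were below zero, between -0.36 and -0.19, none with an unadjusted p under 0.05 in limma. Over all probe sets, 12743 of 22746 were below zero in this comparison.

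The other 7 members serve carbon fixation, lipid synthesis, splicing and assembly, and none was called. The gene rbcL, for the large subunit of the CO2-fixing enzyme Rubisco, had 11.58 and 11.81 in local, 11.79 and 11.63 in systemic, and 11.58 and 11.04 in control leaves. Both groups of wounded plants lay above control, by 0.39 ± 0.18 in local (adjusted p = 0.163) and 0.40 ± 0.18 in systemic leaves (adjusted p = 0.236), and only narrowly above control replicate 1. Without that array the differences were 0.65 and 0.66 and passed (adjusted p = 0.0223 and 0.0464), and without control replicate 2 they were 0.12 and 0.13 (adjusted p = 0.658 and 0.703). The adjacent accD, for a subunit of the acetyl-CoA carboxylase of fatty acid synthesis, had 11.32 and 11.30 in local, 11.36 and 11.06 in systemic, and 11.14 and 10.69 in control leaves. It differed by 0.40 ± 0.16 in local leaves (adjusted p = 0.121), by 0.62 without control replicate 1 (adjusted p = 0.0290) and by 0.17 without control replicate 2 (adjusted p = 0.509).

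For ycf3, which helps to assemble photosystem I, the values were 8.997 and 8.88 in local, 9.67 and 8.89 in systemic, and 9.42 and 8.77 in control leaves, so arrays within the systemic and control groups differed more than the groups did. Its local minus systemic difference was -0.34 ± 0.27 (adjusted p = 0.543). A second assembly gene, ycf4, lay between 11.23 and 11.50. The maturase gene matK, which serves intron splicing, differed by -0.14 in local and -0.07 in systemic leaves. For ccsA, of cytochrome c maturation, and cemA, of the inner envelope, the differences were 0.18 and 0.10 in local leaves and 0.07 and 0.11 in systemic leaves.

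**Figure D2:**
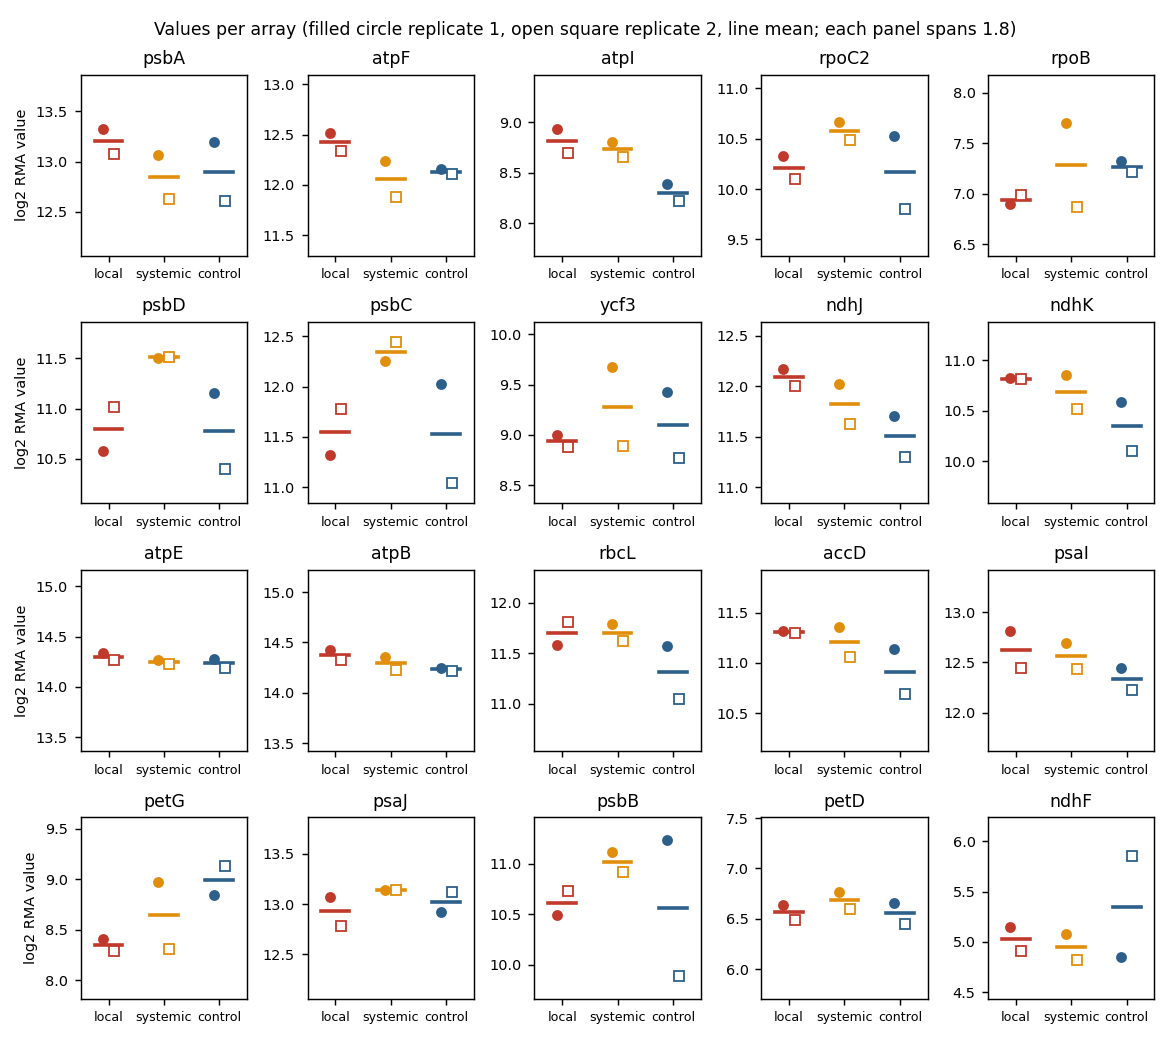
Log2 RMA values of 20 plastid-encoded genes on each array, with local, systemic and control leaves from left to right, replicate 1 as a filled circle, replicate 2 as an open square and the group mean as a line. All panels span the same range. The flat atpB and atpE are the brightest members, and whether they were near saturation could not be seen. The 2 control arrays of psbB, psbC and ndhF lie far apart.

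The members were also grouped by the polymerase known to read them in tobacco plastids. So few members were called that calls could not separate these groups. Of the 7 measured genes read there by the plastid-encoded polymerase (psbA, psbB, psbD, psaA, petB, ndhA and rbcL), none passed, with median differences of 0.05 in local and 0.22 in systemic leaves against control. Among atpB, atpI and ndhF, which both polymerases read there, only atpI in local leaves passed. The gene clpP, of the same class but not a member, differed from control by 0.07 in local and 0.10 in systemic leaves. The 2 measured genes read there by the nuclear-encoded polymerase, accD and rpoB, differed by 0.40 and -0.33 in local leaves and by 0.29 and 0.01 in systemic leaves.

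Gaps between replicate pools were as large as the differences between groups. In 46 of the 53 members (86.8%), the largest gap between the 2 arrays of one group exceeded the largest difference between group means, as it did in 46.1% of all probe sets. In local leaves, replicate 1 was higher than replicate 2 for 44 members, with a median gap of 0.16. In systemic leaves this held for 44 members with a median gap of 0.17, and in control leaves for 41 with a median gap of 0.09. Over all probe sets replicate 1 was higher in 48.4%, 47.1% and 48.5%, with median gaps of -0.01 in each group. It was higher in all 3 groups for 28 members (52.8%) and for 13.4% of all probe sets. A measure of RNA integrity moved with this order: the 3' minus 5' signal of the actin control probe sets was higher on replicate 1 in every group, at 1.77 and 1.53 in local, 2.02 and 1.62 in systemic, and 1.71 and 1.27 in control leaves. That of the ubiquitin control probe sets was 0.97 and 1.05 in local leaves, 1.23 and 1.26 in systemic leaves, and 1.33 and 1.25 in control leaves. The part of either in the members' values was not tested.

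The most extreme gaps lay in control leaves, -1.005 for ndhF and 1.36 for psbB, although the median size of the gap was smaller there (0.15) than in local (0.20) and systemic leaves (0.19). Gaps exceeded 0.5 in 9 members there, against 5 in systemic and 3 in local leaves. Control replicate 2 held the lowest value of 25 members, where it held the lowest of 16.1% of all probe sets. Local replicate 1 held the highest value of 25 members and systemic replicate 1 that of 15, where they held the highest of 17.2% and 12.2% of all probe sets. The spikes and the 25S ribosomal RNA probe set were also lowest on control replicate 2, and their part in these gaps was not tested.

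**Figure D3:**
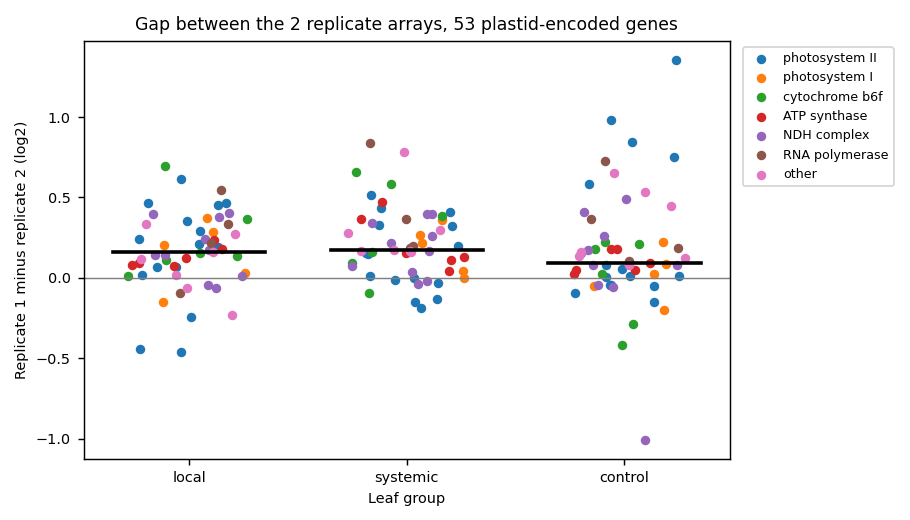
Replicate 1 minus replicate 2 (log2) for the 53 genes in local, systemic and control leaves, with colours for the complexes and a black line at the median of each group. Most points lie above zero in all 3 groups, and the widest gaps, psbB at 1.36 and ndhF at -1.005, are in control leaves.

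**Figure D4:**
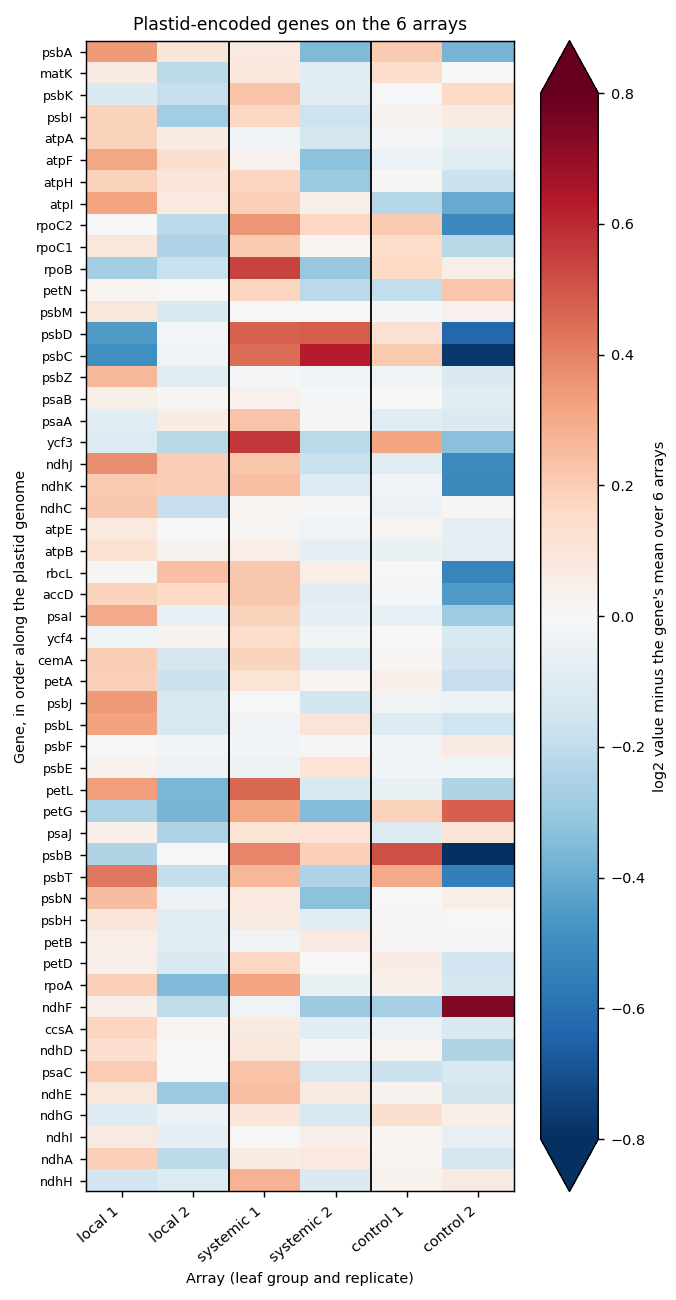
Log2 value of each gene minus its mean over the 6 arrays, with genes in their order along the plastid genome and arrays as columns, local first and control last. The column of control replicate 2 is mostly blue, and psbD with psbC is red on both systemic arrays.

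Sets of arrays that did not overlap were counted for the same comparisons. Local arrays lay above both control arrays for 13 members and below them for 5, or 18 in all, where 23.5% and 35.8% of all probe sets did, together 59.3%. Systemic arrays lay above both control arrays for 10 members and below them for none, where 22.8% and 27.9% did, together 50.7%. The 10 members were psbC, psbD, psbL, psbZ, psaA, psaJ, atpI, ndhA, ndhE and rbcL. Local arrays lay above both systemic arrays for psbA, atpA and atpF and below them for 6 members, where 22.3% and 31.1% of all probe sets did. That made 9 members, against 53.4% of all probe sets.

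The remaining plastid-encoded genes on the array, 15 for ribosomal proteins and clpP for a protease subunit, were set beside the members. Against control, none of these 16 was called in local leaves, where 23.6% of all probe sets were. In systemic leaves 1 (6.25%) was called higher, where 8.4% of all probe sets were called in either direction. Between local and systemic leaves, 2 (12.5%) were called, both lower in local leaves, where 9.7% of all probe sets were called in either direction. The ribosomal protein gene rpl36 had 10.91 and 10.91 in local, 11.52 and 11.73 in systemic, and 11.19 and 11.13 in control leaves. Local arrays lay below control and systemic arrays above it. It rose by 0.46 ± 0.10 in systemic leaves (adjusted p = 0.0328), and was lower in local than in systemic leaves by a difference of -0.71 ± 0.10 (adjusted p = 0.00607). The systemic call was lost whichever array was left out (adjusted p between 0.0519 and 0.164), and the local against systemic call without local replicate 1 (adjusted p = 0.0539).

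For rpl14, in the same gene cluster, values were 9.49 and 9.47 in local, 10.28 and 9.85 in systemic, and 9.92 and 9.79 in control leaves. Its local minus systemic difference of -0.58 ± 0.14 passed (adjusted p = 0.0436), but not after median centring (adjusted p = 0.0512), after cyclic loess (adjusted p = 0.0864), or without any 1 array other than systemic replicate 2. It was not called against control in either leaf, though without either systemic array it was lower in local leaves (-0.37, adjusted p = 0.0381).

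The nuclear genes of the same complexes were covered in part. Of 85 listed genes 13 had a probe set of their own, and 1 was called lower in local and 1 higher in systemic leaves against control, 7.69% of the list each, where 23.6% and 8.4% of all probe sets passed. The first was ATPC2, a gamma subunit gene of the ATP synthase, which fell by 0.46 ± 0.14 in local leaves (adjusted p = 0.0473), a call that ended after median centring (adjusted p = 0.0521), cyclic loess (adjusted p = 0.0962) or trended moderation (adjusted p = 0.0601), with the replicate number as a block (adjusted p = 0.0552), and when any local or control array was left out. The second was LHCB4.3, an antenna protein gene of photosystem II, with 8.15 and 7.75 in local, 9.17 and 8.76 in systemic, and 8.05 and 7.97 in control leaves. Systemic arrays stood above all others. It rose by 0.95 ± 0.17 in systemic leaves (adjusted p = 0.0139), and was lower in local than in systemic leaves, with a difference of -1.01 ± 0.17 (adjusted p = 0.0110). Without systemic replicate 1 both calls were lost (adjusted p = 0.0846 and 0.0521), and the first also without control replicate 2 (adjusted p = 0.0601). Its relatives LHCB4.1 and LHCB4.2 differed by between -0.10 and -0.01 in the 3 comparisons. None of 38 listed nuclear genes of plastid transcription, sigma factors among them, was followed.

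Genes of the other organelle were set side by side with the plastid genes. Mitochondrion-encoded genes were represented by 18 probe sets of 11 genes, of which 7 probe sets were for nad1. They are genes of the respiratory chain except matR, which encodes a maturase for intron splicing. In local leaves 5 of the 18 (27.8%) were called higher and none lower than in control leaves, where 23.6% of all probe sets were called, and the median difference was 0.26. Of the 5, matR (0.33, adjusted p = 0.0467) lost its call with the replicate block (adjusted p = 0.0563), trended moderation (adjusted p = 0.0571), only the 4 arrays compared (adjusted p = 0.0605) and each array left out, and the nad1 probe set lost it without either local array or control replicate 1. In systemic leaves none was called higher and 2 (11.1%), both for nad1, were called lower, where 8.4% of all probe sets were called, and the median was -0.14. Both of these calls were lost without either systemic array or control replicate 1. The call at -0.48 also ended after cyclic loess (adjusted p = 0.0625), trended moderation (adjusted p = 0.0582) and with only the 4 arrays compared (adjusted p = 0.0524). The call at -0.50 also ended without control replicate 2. Between local and systemic leaves 6 (33.3%) were higher in local leaves, where 9.7% of all probe sets were called, and the median was 0.35. Of these, cox1, cox2, nad5 and the nad1 probe set lost the call when some single local or systemic array was left out. These lists differ in number and signal, and the difference between plastid and mitochondrial genes was not tested.

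The largest of these was nad4L, a complex I subunit gene, with 6.59 and 6.51 in local, 5.42 and 5.50 in systemic, and 5.58 and 5.74 in control leaves. It rose by 0.90 ± 0.10 in local leaves (adjusted p = 0.000576). Another complex I gene, nad9, had 7.11 and 7.07 in local, 6.15 and 6.19 in systemic, and 6.29 and 6.23 in control leaves, and rose by 0.83 ± 0.09 (adjusted p = 0.000482). For cox1, of cytochrome c oxidase, the rise was 0.62 ± 0.12 (adjusted p = 0.00858, or 0.0636 without local replicate 1). No plastid member differed from control by as much as nad4L in local leaves. Mitochondrial signals were lower than most plastid ones, so the range over which their values could move was not the same.

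**Figure D5:**
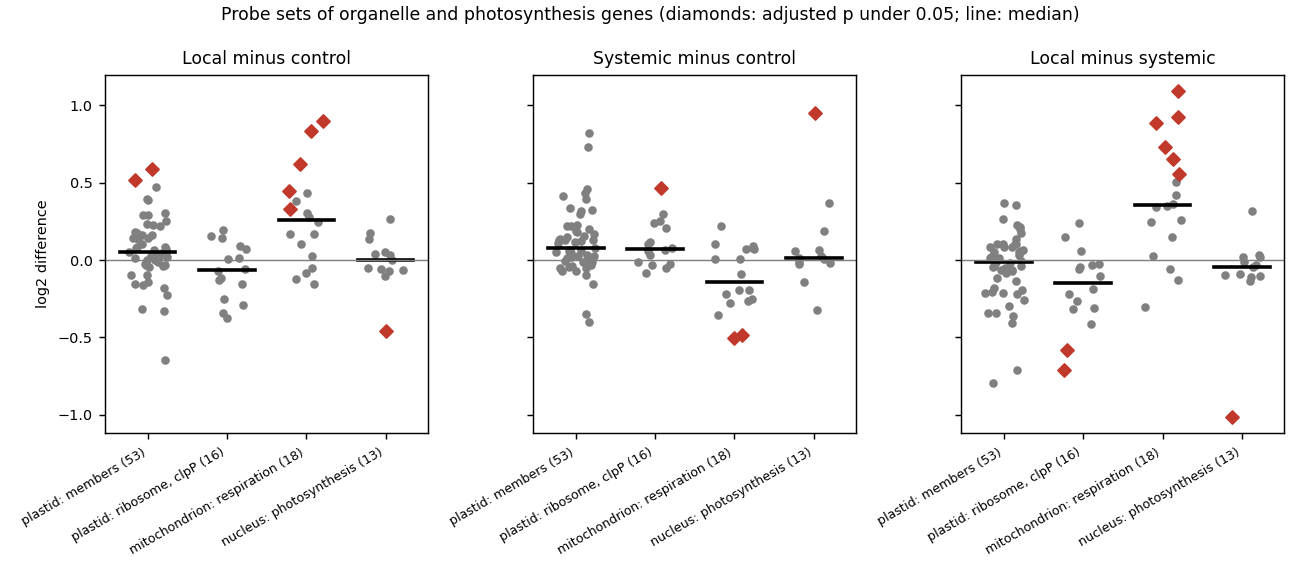
Log2 differences of 53 plastid-encoded members, 16 further plastid-encoded genes, 18 mitochondrion-encoded probe sets and 13 nuclear photosynthesis genes in the 3 comparisons, with called probe sets as diamonds and medians as lines. The plastid members centre near zero, while mitochondrial medians are 0.26 in local and -0.14 in systemic leaves against control.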

How the data were processed

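RNA of 6 leaf pools, 6 µg of total RNA each, was labelled for 1 Affymetrix array per pool, per the labels' protocols. The table holds RMA values on a log2 scale, as deposited by the authors; the submitters' processing notes also name Affymetrix Expression Console, and no version of it is used here. RMA gives the arrays a common distribution, so a shift of all transcripts would not be seen. Detection and saturation calls were not used here. Of 22810 probe sets, 64 controls were left out and 22746 were tested with no filter. The platform annotation names genes: 13513 probe sets list 1 gene, 503 several and 8730 none. Gene order came from the TAIR10.1 gene table.

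A limma model (version 3.58.1, R 4.3.3) of the 3 group means was fitted to all 6 arrays, with two-sided tests, Benjamini-Hochberg adjustment over all 22746 probe sets and a threshold of 0.05. It was tested on simulated data. P-values measure the spread between pools.

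Members and lists were chosen with earlier results of these data known. Every member could be named. Values per array are given for called members, for the 2 brightest and 2 dimmest, and for the largest difference of each complex in each comparison. The members psbB, psbD, psbK, psaA and ndhK were added after their values were seen, and so were LHCB4.1 and LHCB4.2 beside LHCB4.3. From other lists up to 4 genes with the smallest p were named. The marker symbol FDH belonged to a different gene and was left out. Alternatives were the replicate number as a block, each array left out in turn, only the 4 arrays compared, cyclic loess, centring on the median, 2 filters on signal, trended or robust moderation, 1 probe set per gene, and no shared probe sets. Protein and promoter sequences were not used here.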

Additional observations from a re-analysis of the deposited data

How the results depend on the processing

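Of the 2223 differences of members recomputed under alternatives, 2192 kept their side of the threshold, 25 passed where the reported value had not, 5 lost their call and 1 turned, psbB, which was called at -0.63 without control replicate 2 and at 0.73 without control replicate 1 in local leaves. With single arrays left out, the count of called members was 0 to 7 in local against control leaves, 0 to 6 in systemic against control leaves and 0 to 2 in local against systemic leaves. For local against systemic leaves, leaving out either control array gave the same fit as only the 4 arrays compared. Both comparisons with control had their highest count without control replicate 1. Without that array the local calls were psbB, ndhK, rbcL, accD, ndhJ, atpI and, lower, ndhF, and the systemic ones psbB, psbC, psbD, rbcL, rpoC2 and, lower, ndhF. With only the 4 arrays compared, 2 members were called in local against systemic leaves, psbC and psbD. Without systemic replicate 2 only rpoB was called there. The medians over all members moved by less than the spread between replicate arrays under median centring, cyclic loess and each array left out. Leaving out an array of the group not compared cannot change a difference or a median, only the SE. Such refits are among the 2223 differences above and the 168 medians below. Medians of single complexes moved by more than the spread between replicate arrays in 18 of these 168 cases, all with 1 array left out. In local against control leaves, that of the NDH genes was -0.14 to 0.19, the polymerase genes -0.27, the other genes 0.26 and photosystem II 0.14. In systemic against control leaves, photosystem I had 0.09 to 0.33, the other genes -0.01 to 0.25, the polymerase genes 0.40, the ATP synthase 0.12 and photosystem II 0.10. In local against systemic leaves, photosystem II had -0.12 to 0.10, cytochrome b6f -0.21, the other genes -0.15, photosystem I -0.13 and the ATP synthase 0.03. Where a group keeps a single array, it is assumed to vary like the others. Each gene had a single probe set and none had shared probes, so 2 alternatives gave the reported counts.

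With the replicate number as a block, 3 members were called in local leaves (atpI, ndhJ and ndhK), 1 in systemic leaves (atpI at 0.43, adjusted p = 0.0293) and none between local and systemic leaves. Over all 22746 probe sets, 2373 were then called higher and 3329 lower in local leaves against control. In systemic leaves against control these counts were 1209 and 998, and in local against systemic leaves 1243 and 1303. The gaps between replicates 1 and 2 correlated across all probe sets at 0.14 between local and control, 0.02 between systemic and control, and 0.20 between local and systemic leaves, and across the members at -0.27, 0.01 and 0.14. Such a correlation does not register a gap that all probe sets of a set share. The labels give no shared batch, so whether samples with the same number share more than that number is not known. The cause of these changes was not tested. The 2 arrays per group set the limit: the median SE of a member's difference was 0.14, against 0.11 over all probe sets.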

Other observations

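Neighbours on the plastid genome had more similar differences than members taken at large. Over 45 pairs of members that are adjacent among the protein-coding genes of the gene table, the median absolute gap between the differences of the pair was 0.11 in local against control leaves, 0.10 in systemic against control leaves and 0.12 in local against systemic leaves. Over all 1378 pairs of members it was 0.18, 0.17 and 0.18. Pairs share members, so this is a description with no test. Close pairs included psbD with psbC (0.73 and 0.82 in systemic leaves) and ndhJ with ndhK (0.59 and 0.47 in local leaves), whereas petL and petG, also adjacent, differed by 0.13 and -0.64 in local leaves.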
